A study of Mus musculus with 6 samples.

Results

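The major histocompatibility complex (MHC) class II genes were examined in peripheral blood (PB) neutrophils of mice with and without ligature-induced periodontitis (LIP). The group was chosen by gene name and held 10 of the 29097 genes in the deposited table, namely Cd74, H2-Aa, H2-Ab1, H2-Eb1, H2-DMa, H2-DMb1, H2-DMb2, H2-Oa, H2-Ob and Ciita. In LIP mice a silk ligature stayed in place for 14 d, and control (Ctrl) mice were kept unligated over the same 14 d. The methods give wild type C57BL/6 males of 8 weeks for both groups and a sorting gate of CD45+CD11b+Ly6G+ cells. There were 3 Smart-seq2 libraries per group, each made from the pooled neutrophils of 5 mice, so that a library averages over 5 animals and differences between single mice cannot be seen.

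MHC class II molecules are heterodimers that carry peptides from the endosomal pathway to the cell surface, where CD4+ T cells read them. The chains assemble around the invariant chain Cd74, H2-DM exchanges the remaining Cd74 fragment for other peptides, and H2-DO restrains H2-DM. The transactivator Ciita is a main activator of class II genes, acting at promoters occupied by RFX and NF-Y. Class II genes are known for high constitutive expression in B cells and dendritic cells and for low expression in resting neutrophils.

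A stretch of promoter found in 6 members is shown as background, and a link between it and the change between the groups was not tested. RefSeq promoters (GRCm38.p6, 250 bases before to 50 after the start) were listed for 7 of the 10 members and not for Cd74, Ciita and H2-Ab1. Capitals mark AAC, which lies in the X box bound by RFX, and TGATTGG, which holds the inverted CCAAT of the Y box bound by NF-Y. The first 5 stretches belong to members and the last to H2-Eb2, another class II locus outside the group. That of H2-DMb1, the remaining member with this arrangement, lies inside an annotated exon and is not printed. All are written 5′ to 3′ on the strand of the gene.
H2-Aa, chr17:34287867-34287908, minus strand: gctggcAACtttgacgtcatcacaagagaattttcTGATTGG
H2-DMb2, chr17:34145122-34145163, plus strand: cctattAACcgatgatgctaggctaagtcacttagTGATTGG
H2-Eb1, chr17:34305772-34305812, plus strand: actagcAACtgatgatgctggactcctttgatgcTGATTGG
H2-Oa, chr17:34092299-34092340, plus strand: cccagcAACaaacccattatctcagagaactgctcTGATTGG
H2-Ob, chr17:34238814-34238852, plus strand: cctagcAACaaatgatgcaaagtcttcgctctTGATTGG
H2-Eb2, chr17:34325539-34325579, plus strand: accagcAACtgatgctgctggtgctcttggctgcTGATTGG

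The heptamer TGATTGG was present on either strand in 6 of the 7 listed member promoters and in 7.82% of all 32851 promoters, and the shorter ATTGG, which it contains, in 7 of 7 and in 37.4%. The spaced arrangement, AAC followed by 23 to 27 bases and then TGATTGG on either strand, occurred in 6 of 7 members, without H2-DMa, and in 0.536% of all promoters. This pattern was written after the member promoters had been read, so the match is a description. In the stretches printed for H2-Aa, H2-DMb2 and H2-Oa 26 bases separated both elements, against 25 in H2-Eb1 and H2-Eb2 and 23 in H2-Ob.

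Total counts lay between 52186555 and 57262379 per library. The 20 neutrophil markers had a summed level of 16612 to 19948 FPKM in Ctrl and 56522 to 61692 FPKM in LIP. They took 1.94% of all counts in Ctrl and 5.89% in LIP. Ly6g, which encodes the Ly6G antigen of the gate, averaged 18.8 ± 0.692 FPKM in Ctrl and 44.7 ± 5.95 FPKM in LIP (SD, n = 3). Transcripts of cells outside the gate were also present, since haemoglobin genes took 14.6 to 15.0% of the counts in Ctrl and 1.55 to 1.61% in LIP. Of all 10440 genes tested, with a mean of at least 1 FPKM, 53.6% passed the edgeR test at an adjusted p below 0.05, 27.2% as lower and 26.5% as higher in LIP, so a call was common.

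All 10 MHC class II genes were lower in LIP, and for all 10 every Ctrl library lay above every LIP library. Calls made up 53.6% of all genes tested, lower calls 27.2% and full separation in that direction 33.1%. Together the members took 2.14% ± 0.108 of all counts in Ctrl and 0.352% ± 0.00103 in LIP (SD, n = 3). Their log2 fold changes ran from -2.75 for H2-Oa to -1.23 for H2-DMb1 with a median of -2.30, where the median of all genes was -0.09. All 10 passed the filter without resting on the higher group, since each exceeded 1 FPKM in every library, with 2.27 FPKM for Ciita as the lowest value. The counts behind a member ranged from 286 for H2-Oa to 753928 for Cd74 in a library. These are reads without molecular identifiers, so their number does not bound the error.

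**Figure D1:**
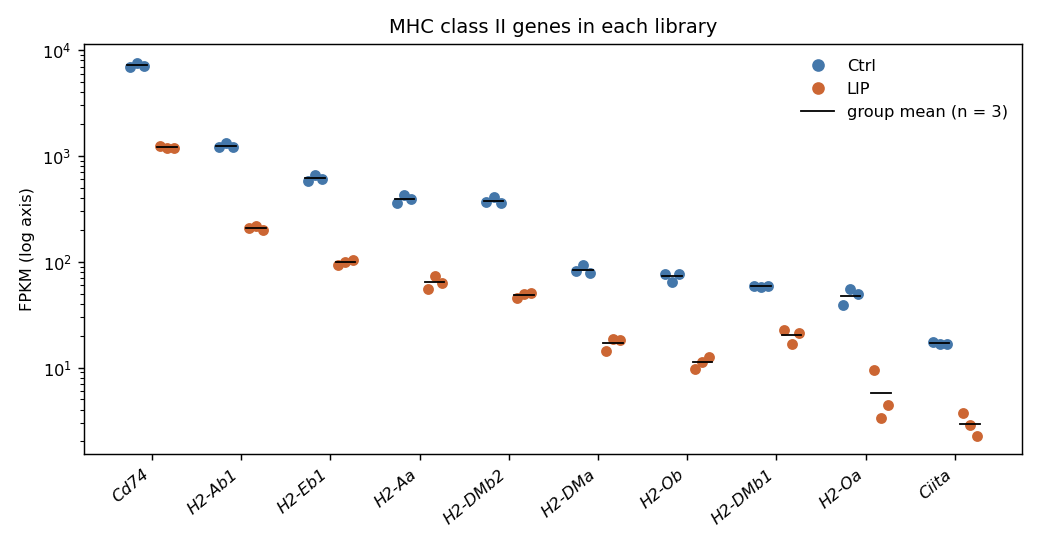
Level of each MHC class II gene in FPKM on a log axis, with a point for each of the 3 Ctrl and 3 LIP libraries and a line at the group mean. All 10 genes sit lower in LIP without overlap, from Cd74 at 7225 against 1209 FPKM down to Ciita at 16.96 against 2.94 FPKM.

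The invariant chain Cd74, which lies on chromosome 18 (60803848 to 60812646, GRCm38), was the most abundant member. Its level was 6961, 7615 and 7100 FPKM in the Ctrl libraries and 1244, 1182 and 1200 FPKM in the LIP libraries. The LIP values lay close together and far below the Ctrl values, and in the order of all genes by mean FPKM Cd74 moved from place 8 in Ctrl to place 43 in LIP. On the TMM scale Cd74 was 4.83-fold lower in LIP (log2 fold change -2.27, SE 0.0678, adjusted p 1.36e-08, edgeR). A microRNA gene, Mir5107, is listed within Cd74 on the same strand, and its row held 303 to 424 counts in Ctrl and 53 to 95 in LIP. These reads cannot be told apart from Cd74 reads, and beside the counts of Cd74 they are few.

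The chains of the peptide-presenting heterodimers followed Cd74. H2-Ab1, the beta chain of I-A, reached 1219, 1319 and 1224 FPKM in Ctrl and 208, 217 and 199 FPKM in LIP. H2-Aa, the alpha chain that pairs with it, reached 362, 431 and 389 FPKM in Ctrl and 55.0, 73.8 and 63.4 FPKM in LIP. H2-Eb1, the beta chain of I-E, reached 574, 663 and 606 FPKM in Ctrl and 93.1, 99.5 and 103 FPKM in LIP. In each of these genes the groups were separated by a gap wider than the range within either group. The log2 fold changes were -2.28 (SE 0.0799, adjusted p 5.03e-08) for H2-Ab1, -2.32 (SE 0.123, adjusted p 3.07e-07) for H2-Aa and -2.33 (SE 0.0979, adjusted p 8.50e-08) for H2-Eb1 by edgeR. Together with Cd74 these chains therefore fell within 0.06 of each other on the log2 scale, less than the SE of any of them. The antisense gene Gm20513 overlaps H2-Eb1 and held 12 to 304 counts per library, few beside those of H2-Eb1.

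H2-Ea encodes the alpha chain of I-E, which C57BL/6 mice lack as a functional gene. Its row held 41, 32 and 12 counts in Ctrl and 0, 8 and 28 in LIP, which was under the filter and was not tested. H2-Eb2, a further class II beta locus, was low at 2.999, 2.42 and 2.91 FPKM in Ctrl and 0.653, 0.268 and 0.789 FPKM in LIP. The groups of H2-Eb2 did not overlap, with a log2 fold change of -1.97 (SE 0.423, adjusted p 0.00286, edgeR). With a LIP mean of 0.570 FPKM, H2-Eb2 passed the filter only through Ctrl.

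The peptide-exchange factor H2-DM is built from the alpha chain H2-DMa and a beta chain that mice carry as a pair of neighbouring genes, H2-DMb1 and H2-DMb2. H2-DMa reached 81.8, 93.7 and 77.5 FPKM in Ctrl and 14.4, 18.8 and 18.0 FPKM in LIP. H2-DMb2 reached 367, 405 and 357 FPKM in Ctrl and 45.8, 49.6 and 51.1 FPKM in LIP. H2-DMb1 reached 59.2, 57.8 and 59.5 FPKM in Ctrl and 22.7, 16.8 and 21.2 FPKM in LIP. All were lower in LIP without overlap, but the beta chain genes differed in size, H2-DMb2 being 6.23-fold lower (log2 fold change -2.64, SE 0.104, adjusted p 5.93e-08) and H2-DMb1 2.35-fold lower (log2 fold change -1.23, SE 0.143, adjusted p 4.68e-05, edgeR). H2-DMa lay between them at -2.00 (SE 0.137, adjusted p 1.29e-06, edgeR). Among all genes tested, H2-DMb1 stood at percentile 15.4 from the lowest log2 fold change, while the other 9 members stood between percentiles 2.05 and 5.49.

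The ratio of H2-DMb2 to H2-DMb1 (FPKM) was 6.20, 6.998 and 6.01 in Ctrl and 2.02, 2.96 and 2.41 in LIP. The Ctrl and LIP ratios did not overlap, and the means were 6.40 ± 0.525 and 2.46 ± 0.476 (SD, n = 3), a difference of -1.39 on the log2 scale. A two-sided exact permutation test gave p = 0.1, the smallest value that 3 libraries against 3 allow, and 0.2 after Benjamini-Hochberg adjustment over 12 such ratios. The value of each beta chain gene is uncertain to the extent that reads were split between them, because the principal transcripts (1404 and 1424 bases) are 93.9% identical over 1255 aligned bases. Of the 150-base windows of H2-DMb1, the length of a read, 5.74% recur without a mismatch in H2-DMb2, and of the 50-base windows 27.2%. H2-DMa further overlaps Brd2 on the opposite strand (log2 fold change -0.33, SE 0.111), whose 6964 to 11725 counts per library are of the same order as those of H2-DMa, and the use of strand in counting is not given in the sources used here.

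**Figure D2:**
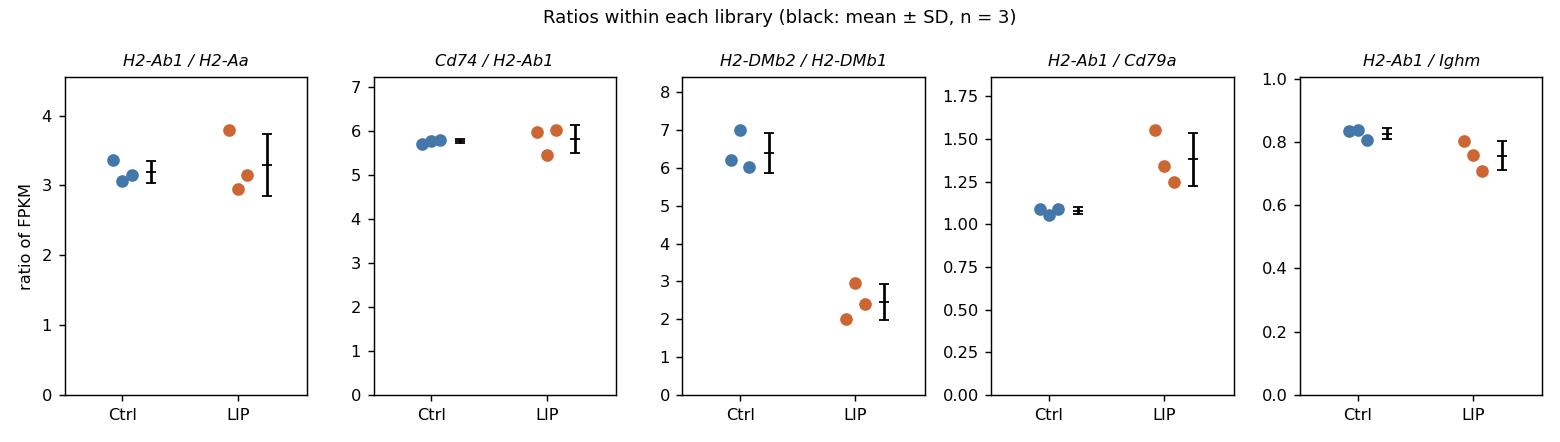
Ratio of FPKM values within each library for 5 gene pairs, with a point per library and the mean ± SD in black (n = 3 per group). H2-Ab1 / H2-Aa (3.19 against 3.29) and Cd74 / H2-Ab1 (5.76 against 5.81) overlap between Ctrl and LIP, whereas H2-DMb2 / H2-DMb1 (6.40 against 2.46), H2-Ab1 / Cd79a (1.08 against 1.38) and H2-Ab1 / Ighm (0.826 against 0.756) do not, the ratio to Cd79a being higher and that to Ighm lower in LIP.

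The chains of H2-DO, the modulator of H2-DM that is known mainly from B cells, were also lower. H2-Ob, the beta chain, reached 76.0, 64.6 and 77.3 FPKM in Ctrl and 9.62, 11.3 and 12.6 FPKM in LIP. H2-Oa, the alpha chain, reached 38.9, 54.7 and 49.2 FPKM in Ctrl and 9.42, 3.32 and 4.42 FPKM in LIP. H2-Oa was the most variable member, with LIP replicate 1 well above the other LIP libraries, but neither gene overlapped between the groups. The log2 fold changes were -2.39 (SE 0.130, adjusted p 3.27e-07) for H2-Ob and -2.75 (SE 0.353, adjusted p 9.53e-05) for H2-Oa by edgeR. BC051537 overlaps H2-Oa on the opposite strand and held 5 to 108 counts per library.

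Ciita, the transactivator, lies on chromosome 16 (10480059 to 10526426, GRCm38), away from the class II region, and was the least abundant member. It reached 17.5, 16.8 and 16.6 FPKM in Ctrl and 3.72, 2.84 and 2.27 FPKM in LIP. Every LIP value was far below the narrow range of the Ctrl values, and the log2 fold change was -2.22 (SE 0.176, adjusted p 3.15e-06, edgeR). Ciita shares sequence with Dexi on the opposite strand, itself lower in LIP (-1.45, SE 0.231), with 513 to 2482 counts per library against 1225 to 9582 for Ciita, so that reads in the overlap may have been assigned to either gene.

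The order of the levels per length was nearly kept between the groups. In Ctrl it ran from Cd74 (7225 ± 344 FPKM) over H2-Ab1 (1254 ± 56.3), H2-Eb1 (615 ± 45.2), H2-Aa (394 ± 34.4), H2-DMb2 (376 ± 25.1), H2-DMa (84.3 ± 8.40), H2-Ob (72.7 ± 7.002), H2-DMb1 (58.8 ± 0.877) and H2-Oa (47.6 ± 7.99) to Ciita (16.96 ± 0.481 FPKM, SD, n = 3). H2-Aa and H2-DMb2 overlapped in Ctrl, and the SDs of H2-DMa and H2-Ob met. In LIP H2-DMb1 (20.2 ± 3.11 FPKM) stood above H2-DMa (17.1 ± 2.34 FPKM) and H2-Ob (11.2 ± 1.51 FPKM), although H2-DMb1 and H2-DMa overlapped, as did H2-Oa (5.72 ± 3.25 FPKM) and Ciita (2.94 ± 0.733 FPKM). These levels rest on gene lengths proportional to the union of all annotated exons, which for H2-Aa is 3798 bases against 1128 for the principal transcript. With the principal transcript length H2-Aa stood above H2-Eb1 in both groups, and in LIP H2-DMa stood above H2-DMb1.

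Ratios within the antigen-presenting set overlapped between the groups. H2-Ab1 to H2-Aa, the chains of I-A, was 3.19 ± 0.156 in Ctrl and 3.29 ± 0.443 in LIP (FPKM, SD, n = 3, exact permutation p = 0.9, adjusted 0.982). Cd74 to H2-Ab1 was 5.76 ± 0.0463 in Ctrl and 5.81 ± 0.319 in LIP (n = 3, exact permutation p = 1, adjusted 1). With principal transcript lengths H2-Ab1 to H2-Aa was 2.01 in Ctrl and 2.07 in LIP, and Cd74 to H2-Ab1 was 3.24 and 3.26. The size of a ratio thus depends on the length chosen. A change of length rescales a ratio by the same factor in every library, so it cannot alter the overlap of the groups. The ratios H2-DMa to H2-Oa, H2-DMb2 to H2-Ob and H2-Ob to H2-Oa overlapped as well, with exact permutation p of 0.4, 0.2 and 0.5 and adjusted values of 0.533, 0.343 and 0.6 (n = 3).

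The B cell, T cell and erythroid markers were lower in LIP like the class II genes, beside 27.2% of all genes tested. All 19 B cell markers were lower in LIP (log2 fold change -2.89 to -0.31, median -2.53), with a summed level of 4239 to 4503 FPKM in Ctrl and 681 to 745 FPKM in LIP. The largest changes were those of Fcer2a (-2.89), Ighd (-2.72), Fcrla (-2.68) and Ms4a1 (-2.65). Their most abundant genes were Ighm, the IgM heavy chain, at 1518 ± 56.5 and 276 ± 13.9 FPKM, Cd79a, a signalling chain of the B cell receptor, at 1163 ± 75.4 and 152 ± 15.3 FPKM, and its partner Cd79b at 406 ± 65.7 and 53.6 ± 5.75 FPKM in Ctrl and LIP (SD, n = 3). All 10 T cell markers were lower as well, with a summed level of 253 to 292 FPKM in Ctrl and 38.2 to 50.4 FPKM in LIP, led by Cd8a (-3.38), Cd8b1 (-2.92), Cd3e (-2.87) and Il7r (-2.74). So were all 9 erythroid markers tested, led by Slc4a1 (-3.99), Bpgm (-3.31), Alas2 (-3.21) and Hbb-bt (-3.19, log2 fold change). In a bulk library fewer cells of a type and less RNA per cell cannot be told apart, and the part of B cell transcripts in the class II result was not tested.

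Most of the tested markers listed for monocytes and dendritic cells, other antigen-presenting cells of blood, were higher in LIP, beside 26.5% of all genes tested. Of the 9 monocyte markers 8 were higher and 1, Ly86, was lower, the largest changes being those of Ccr2 (1.72), Csf1r (1.39), Adgre1 (1.16) and F13a1 (1.14), with a summed level of 196 to 207 FPKM in Ctrl and 293 to 324 FPKM in LIP. Of the 10 dendritic cell markers 6 were under the filter, among them Zbtb46, Xcr1 and Clec9a with means of at most 0.380 FPKM in either group. Ccr9, also under the filter, averaged 0.716 ± 0.222 FPKM in Ctrl and 0.183 ± 0.204 FPKM in LIP (SD, n = 3), every Ctrl library lying above every LIP library. Of the 4 tested, 3 were higher (Itgax 1.12, Cd209a 1.49 and Batf3 1.75, log2 fold change) and Bst2 did not pass (0.0034), and the summed level over all 10 was 35.4 to 47.5 FPKM in Ctrl and 45.2 to 48.2 FPKM in LIP. Batf3 passed the filter only through LIP, with means of 0.734 FPKM in Ctrl and 2.02 FPKM in LIP. The Batf3 call was lost under 8 alternatives, with library totals, both limma fits, no filter or filterByExpr (adjusted p 0.0681 to 0.164) and without Ctrl replicate 1, Ctrl replicate 3 or LIP replicate 1 (adjusted p 0.0992, 0.116 and 0.155, edgeR). Of the 20 neutrophil markers 19 were higher (median log2 fold change 1.89), led by Mmp8 (2.51), Csf2rb (2.16), Retnlg (2.11) and Fpr1 (2.10), and with the libraries scaled on these markers in place of TMM the median of the class II genes was -4.11. Under that scaling all genes shifted to a median of -1.90, all 10 class II genes remained lower, and the 3 higher dendritic cell markers (Itgax -0.68, Cd209a -0.32 and Batf3 -0.068), Bst2 (-1.80) and the 4 named monocyte markers (Ccr2 -0.092, Csf1r -0.42, Adgre1 -0.66 and F13a1 -0.67) turned negative. Cd209a, Batf3 and Ccr2 did not pass the test there (adjusted p 0.385, 0.919 and 0.554, edgeR).

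**Figure D3:**
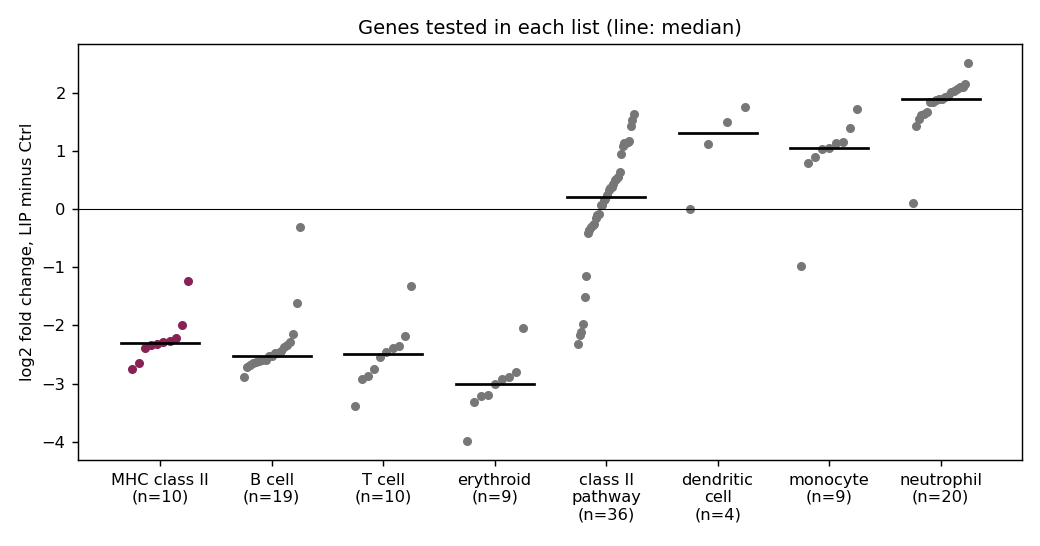
Log2 fold change of LIP against Ctrl for each tested gene of 8 lists, with a line at the list median. The 10 MHC class II genes (median -2.30) lie beside the B cell (-2.53), T cell (-2.50) and erythroid (-3.01) markers, while the monocyte (1.06), dendritic cell (1.31) and neutrophil (1.89) markers lie mostly above 0.

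To set each class II gene against B cell transcripts of the same library, the libraries were rescaled so that the mean log2 CPM of the 19 B cell markers, none of which is a member, was equal in all 6. On this scale 90.1% of all genes tested passed, 89.5% as higher and 0.575% as lower in LIP, with a median of 2.28. Of the 10 class II genes 2 were higher (H2-DMb1 and H2-DMa), 1 was lower (H2-DMb2) and 7 did not pass the test. The T cell markers gave a like picture, with 1 of 10 lower, 1 higher, 8 not past the test and a median of -0.13. A place near 0 was therefore not particular to the class II genes. Of the 9 erythroid markers tested 7 were lower and 2 not past the test, with a median of -0.63. Of the 19 B cell markers themselves 3 were lower, 2 higher and 14 not past the test. Their values ran from -0.53 for Fcer2a to 2.07 for Cd37 with a median of -0.16, so 0 is their mean and not the place of each. All 10 class II values lay within that range, but H2-DMb1 (1.14) only through Cd37, the next marker being Cxcr5 at 0.76. H2-DMb2 (-0.27) lay next to Cd79a (-0.26). The standard errors on this scale leave out the error of the scale itself, and with so many genes called the adjustment hardly changes a p. Cd74 (0.10, SE 0.0940), H2-Ab1 (0.09, SE 0.102), H2-Aa (0.05, SE 0.129), H2-Eb1 (0.03, SE 0.115), H2-Ob (-0.02, SE 0.126) and Ciita (0.16, SE 0.188) lay within 1 SE of 0 or just beyond it.

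H2-DMb1 was 2.21-fold higher in LIP than the mean of the B cell markers placed it (log2 1.14, SE 0.165, adjusted p 2.71e-05, edgeR). That value lay below the median of all genes tested (2.28), and reads shared with H2-DMb2 limit it. H2-DMb1 passed the test under all 9 alternatives tried on this scale, with values of 0.97 to 1.28. H2-DMa (0.37, SE 0.143, adjusted p 0.0289, edgeR) passed under 3 of the 9, being lost with the summed counts of the markers (0.19, adjusted p 0.172), with their median (0.35, adjusted p 0.108) and without Ctrl replicate 1, Ctrl replicate 3, LIP replicate 2 or LIP replicate 3 (adjusted p 0.0866, 0.122, 0.0972 and 0.0870). H2-DMb2 (-0.27, SE 0.121, adjusted p 0.0497, edgeR) passed under 2 of the 9. It was lost with the median of the markers (-0.29, adjusted p 0.125), with the replicate number as a block (adjusted p 0.0618) and without Ctrl replicate 2, Ctrl replicate 3, LIP replicate 1, LIP replicate 2 or LIP replicate 3 (adjusted p 0.110, 0.0563, 0.122, 0.101 and 0.0811, edgeR). H2-Oa, which varied most (-0.37, SE 0.358, adjusted p 0.342, edgeR), was called lower without LIP replicate 1 (-0.97, adjusted p 0.00380). The ratio H2-Ab1 to Cd79a was 1.09, 1.06 and 1.09 in Ctrl and 1.55, 1.34 and 1.25 in LIP (FPKM), and Cd74 to Cd79a was 6.23, 6.09 and 6.33 in Ctrl and 9.26, 7.31 and 7.50 in LIP. Neither ratio overlapped between the groups, and both were higher in LIP. The direction depended on the marker, since H2-Ab1 to Ighm was 0.834, 0.837 and 0.807 in Ctrl and 0.801, 0.759 and 0.708 in LIP, lower in LIP without overlap, and Cd74 to Ighm, at 4.76 ± 0.0753 and 4.39 ± 0.345 (SD, n = 3), overlapped. Against Cd79b both were higher without overlap, at 3.13 ± 0.340 and 3.92 ± 0.469 for H2-Ab1 and 18.0 ± 1.96 and 22.8 ± 3.22 for Cd74 in Ctrl and LIP (SD, n = 3). Each ratio that separated had an exact permutation p of 0.1, the smallest possible, and 0.2 after adjustment (n = 3), and Cd74 to Ighm had an exact permutation p of 0.3, adjusted 0.45.

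**Figure D4:**
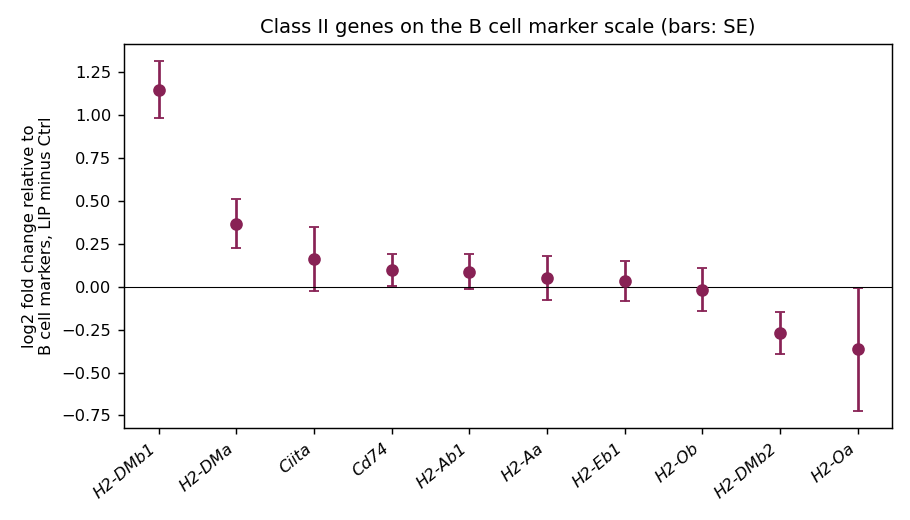
Log2 fold change of LIP against Ctrl for the 10 MHC class II genes after scaling on 19 B cell markers, with bars of 1 SE that leave out the error of the scale. H2-DMb1 (1.14) stands apart at the top, though below the median of all genes tested (2.28, not drawn). H2-Oa (-0.37) has the widest bar, and 7 of the 10 did not pass the test.

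The other genes of the pathway moved in both directions. The 38 listed genes covered regulation, antigen processing, turnover, costimulation, Cd74 partners and the class II loci H2-Ea and H2-Eb2. Of these 36 were tested, with a median log2 fold change of 0.21. Among the 36, 5 with H2-Eb2 were lower, 14 higher and 17 not past the test, where all genes tested gave 27.2% lower and 26.5% higher. The pathway split depended on the scaling, being 11 lower and 9 higher with library totals and 35 lower and 0 higher on the neutrophil scale. The higher calls named below turned negative on the neutrophil scale. Rfx5, the DNA-binding subunit of RFX, was 2.02, 1.62 and 3.57 FPKM in Ctrl and 0.464, 0.697 and 0.182 FPKM in LIP, lower without overlap (log2 fold change -2.11, SE 0.491, adjusted p 0.00444, edgeR). With a LIP mean of 0.448 FPKM, Rfx5 passed the filter of 1 FPKM only through Ctrl. So did H2-Eb2 and Cd40, with LIP means of 0.570 and 0.989 FPKM, so these lower calls are a description. None of the 5 other tested promoter factors passed, with values of 0.18 for Rfxap, a further RFX subunit, -0.14 for Nfyb, a subunit of NF-Y, and 0.36 for Creb1, which binds next to RFX.

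Of the 10 genes of the interferon-gamma route and the factors upstream of Ciita, 1 was lower and 6 were higher. Lower and higher calls made up 27.2% and 26.5% of all genes tested. Irf8, a factor of B cells, dendritic cells and monocytes, was 62.0, 72.7 and 65.5 FPKM in Ctrl and 24.0, 26.2 and 22.6 FPKM in LIP, lower without overlap (log2 fold change -1.15, SE 0.109, adjusted p 1.07e-05, edgeR). Irf4, which acts in activated B cells, was at -1.51 (SE 0.665, adjusted p 0.0775, edgeR) and did not pass, but it did under 6 alternatives, with library totals (adjusted p 0.0390), the neutrophil scale (0.000909), limma at both pseudocounts (0.00769 and 0.0188) and the replicate block (0.0168), and without LIP replicate 1 (-2.72, adjusted p 0.00145). Spi1, the myeloid and B cell factor PU.1, was higher at 247 ± 16.5 FPKM in Ctrl and 576 ± 23.4 FPKM in LIP (log2 fold change 1.53), as was Irf1, an interferon-induced activator of Ciita (1.14). Ifngr1, the ligand-binding chain of the interferon-gamma receptor, was at 0.33 (SE 0.0952, adjusted p 0.0142, edgeR) and was lost with library totals (0.0012, adjusted p 0.992), limma at both pseudocounts and the filter of 5 FPKM, and without Ctrl replicate 3 or LIP replicate 3 (adjusted p 0.0586 and 0.0663).

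On the TMM scale 5 of the 8 genes of antigen processing were higher and none was lower, the opposite direction from the class II chains. Among all genes tested 26.5% were higher and 27.2% lower. On the neutrophil scale the processing genes named next were negative (-0.86 to -0.17), as were the class II genes. Ctsd did not pass the test there (adjusted p 0.132, edgeR). The lysosomal protease Ctsd was 212 ± 16.6 FPKM in Ctrl and 535 ± 28.1 FPKM in LIP (SD, n = 3, log2 fold change 1.64), and Cd63, a membrane protein of late endosomes, Ctsl and Ctsb were at 1.18, 1.15 and 0.95. Among the genes of class II turnover, Cd83, which stabilises surface class II, was 66.5, 60.4 and 63.9 FPKM in Ctrl and 10.7, 13.5 and 10.3 FPKM in LIP, lower without overlap (log2 fold change -2.16, SE 0.137, adjusted p 7.70e-07, edgeR). The ubiquitin ligases Marchf1 (0.25) and Marchf8 (0.56) did not pass.

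The costimulatory genes split, with Cd40 lower (-2.32, SE 0.379, adjusted p 0.000499), Cd80 higher (1.14, SE 0.163, adjusted p 0.000205) and Cd86 (-0.40) and Icosl (-0.37) not past the test by edgeR. Both passed as lower with library totals (-0.73 and -0.69, adjusted p 0.00335 and 0.00767), limma at both pseudocounts, the filter of 5 FPKM and the neutrophil scale. Of the genes that act with Cd74 as a surface receptor, Cd44 was higher (1.42, SE 0.108, adjusted p 2.35e-06, edgeR) and Cxcr4 was at 0.39 (SE 0.126, adjusted p 0.0242, edgeR), a call lost with library totals (0.06, adjusted p 0.698), limma at both pseudocounts and the filter of 5 FPKM, and without Ctrl replicate 1, LIP replicate 1 or LIP replicate 2 (adjusted p 0.0647, 0.0829 and 0.0682). The ligands Mif (-0.31) and Ddt (-0.26) did not pass. Mif passed as lower with library totals (-0.64, adjusted p 0.00265), limma at both pseudocounts, the filter of 5 FPKM and the neutrophil scale, and without Ctrl replicate 1 (-0.40, adjusted p 0.0434, edgeR), and Ddt passed with limma at both pseudocounts (adjusted p 0.0401 and 0.0476) and on the neutrophil scale. On the B cell marker scale none of the 36 pathway genes was lower, 31 (86.1%) were higher and 5 did not pass, close to the 89.5% of all genes tested that were higher and the 0.575% that were lower.

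**Figure D5:**
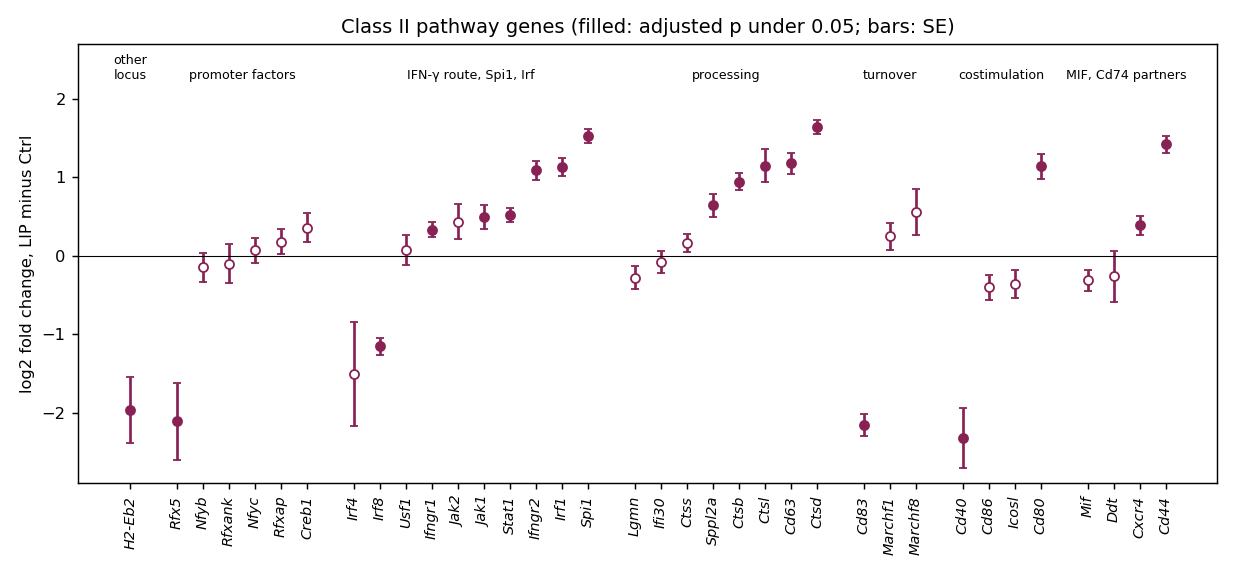
Log2 fold change of LIP against Ctrl (TMM scale, bars of 1 SE) for 36 tested genes of the class II pathway, grouped by role, with filled points past an adjusted p of 0.05. Filled points below 0 are H2-Eb2, Rfx5, Irf8, Cd83 and Cd40, and the highest filled point is Ctsd at 1.64.

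The genes whose pattern over the 6 libraries was most like the mean of the class II genes were named by the root mean square distance of their centred log2 CPM. These were Foxo1 (0.0406), Ighj2 (0.0530), Igkv13-85 (0.0768), Ighm (0.0927) and Igkv19-93 (0.0999), of which Foxo1 encodes a transcription factor and the others are immunoglobulin genes or gene segments. Among the members, Cd74 (0.0134) and H2-Ab1 (0.0560) lay closest to their common mean, H2-Oa (0.529) and H2-DMb1 (0.522) farthest, and the median member at 0.193. The segments may share reads with similar segments, so their own values are uncertain.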

How the data were processed

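PB neutrophils of 3 Ctrl and 3 LIP pools were profiled by paired-end Smart-seq2. Per the submitters' processing notes, reads were trimmed with cutadapt 1.9, checked with FastQC and set against GRCm38; the aligner, the counting tool and the use of strand are not given in the sources used here. The table deposited by the authors holds whole-number read counts, not normalized and made without molecular identifiers, beside FPKM values that the authors scaled to gene length and library total. No other per-sample columns were present.

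Groups and replicate numbers came from the sample labels, where LIP is named by its ligature. Library totals were 52186555 to 57262379 counts. Where a gene name had several rows (50 names), the row of highest mean FPKM stood for it. Genes with a mean of at least 1 FPKM (10440) were tested with edgeR 4.0.16 (R 4.3.3), quasi-likelihood, TMM and Benjamini-Hochberg adjustment; SE is the absolute log2 fold change over the root of F. P-values measure the spread between pools. Libraries of the same group differed pairwise by a chi-square of 51.9 to 126 per gene, so none was a duplicate. Ratios were compared by two-sided exact permutation tests. Same-numbered libraries come from different mice, and their deviations correlated by -0.01 to 0.04, so the numbers do not pair the libraries. Overlaps and transcripts were read from GENCODE M21, promoters from RefSeq.

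Alternatives were library totals, median-of-ratios factors, scaling on 20 neutrophil markers, DESeq2 1.42.0, limma 3.58.1 on log2(FPKM + 1) and log2(FPKM + 0.1), other filters, a replicate block and each library left out. The members, lists and alternatives were chosen with earlier results of these data known. The median of the B cell markers as a scale, the principal transcript length and the ratios to Ighm and Cd79b were added after the values were seen. All members were named, with up to 4 genes of the largest absolute change per list, the 3 most abundant B cell markers, Ifngr1, Rfx5, H2-Ea, Ly6g and the 5 genes most like the members. Genes outside this rule (Mir5107, Gm20513, Brd2, BC051537, Dexi, Ly86, Ccr9, Zbtb46, Xcr1, Clec9a and the region's neighbours) were named after their values were seen.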

Additional observations from a re-analysis of the deposited data

How the results depend on the processing

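All 10 class II genes kept their direction and passed the test under all 16 alternatives (160 values, log2 fold change -4.55 to -1.11, adjusted p at most 0.00150 by edgeR, limma or DESeq2). The 19 B cell markers stayed at 18 or 19 calls except under the filter of at least 5 FPKM (17). Under that filter Pax5 (mean 4.87 FPKM) and Cr2 (3.93 FPKM) were not tested. With the replicate number as a block, which pairs libraries only by label, the class II median was -2.30 with 10 calls, and the H2-DMb2 call on the B cell marker scale was lost (-0.26, adjusted p 0.0618, 0 genes lower). On that scale 0 class II genes were lower and 1 higher with the median of the markers, 1 was higher with their summed counts, and leaving out a library gave 0 to 1 lower and 1 to 4 higher, the 4 without Ctrl replicate 2, where Cd74 (0.18) and H2-Ab1 (0.17) were called.

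The pathway split of 5 lower and 14 higher became 11 and 9 with library totals, 12 and 9 with limma at either pseudocount, and 35 and 0 on the neutrophil scale, while leaving out a library gave 5 to 7 lower and 12 to 15 higher. The median of all genes was -0.42 with library totals and -1.90 on the neutrophil scale, by construction of the scaling, and calls over all genes went from 5601 to 9283 on the latter and to 3666 with the filter of 5 FPKM, which tested fewer genes. On the neutrophil scale 23 named genes changed sign, namely Creb1 -1.45, Rfxap -1.63, Spi1 -0.28, Irf1 -0.67, Ctsd -0.17, Cd63 -0.63, Ctsl -0.67, Ctsb -0.86, Marchf8 -1.25, Marchf1 -1.56, Cd80 -0.67, Cd44 -0.39, Cxcr4 -1.42, Batf3 -0.068, Cd209a -0.32, Itgax -0.68, Bst2 -1.80, Ccr2 -0.092, Csf1r -0.42, Adgre1 -0.66, F13a1 -0.67, Ifngr1 -1.48 and Ly6g -0.25. Among them Ctsd, Ly6g, Cd209a, Ccr2 and Batf3 did not pass the test on that scale (adjusted p 0.132, 0.222, 0.385, 0.554 and 0.919, edgeR). The other values were those of single genes, the B cell marker scale included, and of the FPKM ratios. Of these 34 lost and 29 gained a call, 4 ratio values moved by at least the SD, and 1077 did none of these.

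With 3 pools per group no exact permutation test can pass 0.05. Reads shared by H2-DMb1 and H2-DMb2, and antisense overlaps at H2-DMa, H2-Eb1, H2-Oa and Ciita, limit the values of these genes.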

Other observations

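The genes lying between the class II members on chromosome 17 moved in both directions. Between H2-Oa and H2-Eb1 (chr17:34092340-34316674, GRCm38), which holds 8 of the 10 members, 12 other genes were listed and 6 were tested, whose log2 fold changes had a median of -0.07. Of these 2 (33.3%) were lower, 1 was higher and 3 did not pass, where 27.2% of all genes tested were lower. The class I peptide transporter genes Tap1 (-0.03, SE 0.123) and Tap2 (0.12, SE 0.132) and the immunoproteasome subunit Psmb8 (-0.11, SE 0.120) did not pass the edgeR test, and Psmb9, another immunoproteasome subunit, was higher (0.51, SE 0.128, adjusted p 0.00705). Those that were lower, Brd2 (-0.33, SE 0.111, adjusted p 0.0288) and Gm20513 (-2.46, SE 0.573, adjusted p 0.00453, edgeR), each overlap a member, H2-DMa and H2-Eb1.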
